A study of Mus musculus with 2 samples.

Results

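Collagen genes encode the chains that wind into the collagen triple helix, the main structural protein of the extracellular matrix. Genes were taken as collagens when their mouse symbol read Col, a type number, a and a chain number, and 44 of the 43346 mouse genes in the tables qualified. All 44 are protein-coding. They were read in total RNA longer than 200 nucleotides from mouse forebrain at embryonic day 15.5 (15.5 days), in strain B6NCrl and embryos of mixed sex. The labels name no treatment or mutation. There was 1 group of 2 biological replicates: replicate 1 was a pool of 78 embryos and replicate 2 a pool of 62, and 10 ng of RNA with added spike-ins went into each. The libraries held 38720511 and 35103430 expected counts, of which the collagens took 42800 and 39051. Levels are TPM, the relative number of a gene's transcripts after correction for length, given for replicate 1 and then replicate 2. With a single group of 2 libraries, a two-sided exact sign-flip test cannot go below p = 0.5. Differences were therefore set against the spread between the libraries, and no test was made.

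Fibrillar collagens form the banded fibrils of connective tissue, while collagen IV forms the sheet-like network of basement membranes. In the embryonic brain the basement membranes lie at the pial surface and around blood vessels, and the meninges hold fibrils. FACIT collagens attach to the surface of fibrils, collagen VI forms beaded filaments, short-chain collagens form open networks, multiplexins sit in the basement membrane zone, and transmembrane collagens stay anchored in the cell surface. Glycine, encoded by GGN, recurs at a fixed short step along the helix.

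The helix can be seen in the exons of the most abundant chains. The 54-base internal coding exon nearest the middle of each gene is given for 3 fibrillar chains and for Col4a1, because together these 4 genes were among the 5 highest collagens. Coordinates and sequences are from GENCODE M21 on mm10, on the gene's own strand from 5′ to 3′. The exons lie at chr1:45334761-45334814 (+, exon 26), chr11:94944355-94944408 (+, exon 26), chr6:4523594-4523647 (+, exon 26) and chr8:11238998-11239051 (-, exon 17). Capitals mark the GG that starts each helix repeat of 9 bases.
Col3a1: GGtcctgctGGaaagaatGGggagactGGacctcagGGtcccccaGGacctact
Col1a1: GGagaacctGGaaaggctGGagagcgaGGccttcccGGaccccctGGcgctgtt
Col1a2: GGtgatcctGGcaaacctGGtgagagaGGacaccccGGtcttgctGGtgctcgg
Col4a1: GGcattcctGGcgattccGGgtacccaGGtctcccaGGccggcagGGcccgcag
All 4 exons start on the first base of a repeat and carry GG at every ninth base from there. The same phase was found in 452 of the 469 internal coding exons of 54 bases in collagen genes (96.4%), against 0 of 698 such exons in other protein-coding genes. Exons of this length made up 24.5% of the 1916 internal coding exons of collagens, against 0.443% of 157408 in other protein-coding genes. Exon lengths divisible by 9 made up 63.9% and 13.7%.

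The classes differ in this layout. In the 11 fibrillar genes, 48.6% of internal coding exons had 54 bases and 83.9% a length divisible by 9. In the 6 collagen IV genes the shares were 4.23% and 47.2%, and in the 9 FACIT genes 26.3% and 55.1%. The FACIT genes were spread over a wide range. Col9a2 and Col9a3 (46.7% each) and Col22a1 (45.9%) had shares of 54-base exons within the fibrillar range of 42.9% to 56.9%. Below that range lay Col9a1 (38.9%), Col19a1 (31.25%), Col16a1 (17.9%), Col20a1 (11.8%), Col14a1 (8.89%) and Col12a1 (6.35%). The 3 short-chain genes have no internal coding exon. Most collagen IV exons thus do not have the 54-base length that leads in fibrillar genes, although both families encode the same kind of helix.

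**Figure D1:**
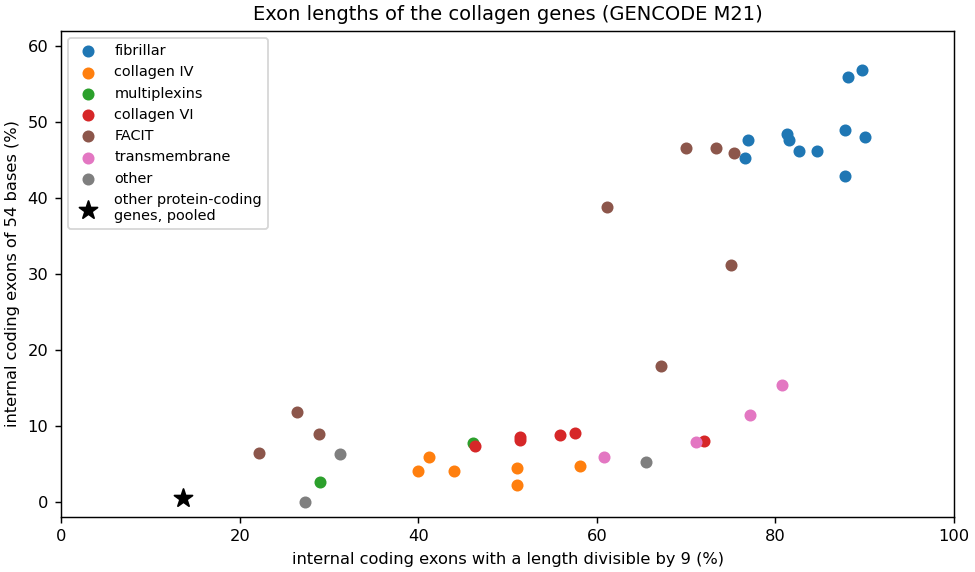
Each point is 1 collagen gene with internal coding exons, placed by the percentage of those exons whose length is divisible by 9 (x axis) and the percentage with exactly 54 bases (y axis); the star is all other protein-coding genes pooled, and colours give the class. The 11 fibrillar genes lie at the upper right with 3 FACIT genes (Col9a2, Col9a3 and Col22a1) at like heights, the 6 collagen IV genes lie low at 4.23% pooled, and the star sits at 13.7% and 0.443%.

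Of the 44 collagens, 29 (65.9%) reached 1 TPM in both libraries, against 60.6% of the 21474 protein-coding genes. The share was close to that background. Of these 29, 9 were at 10 TPM or more in both libraries and 20 lay between 1 and 10. Another 14 were below 1 TPM in both, and Col8a1 fell on either side of it. Every member had reads in both libraries. The median member had 2.77 TPM, against 4.76 TPM for protein-coding genes.

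Together the collagens held 378 TPM in replicate 1 and 374 TPM in replicate 2, or 0.0402% and 0.0395% of the TPM of mouse genes. The 5 highest members held 57.4% and 58.3% of the collagen total, and the 9 highest 77.8% and 79.4%. In bulk tissue, fewer cells of a type and less RNA per cell cannot be told apart, which holds for every level below.

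**Figure D2:**
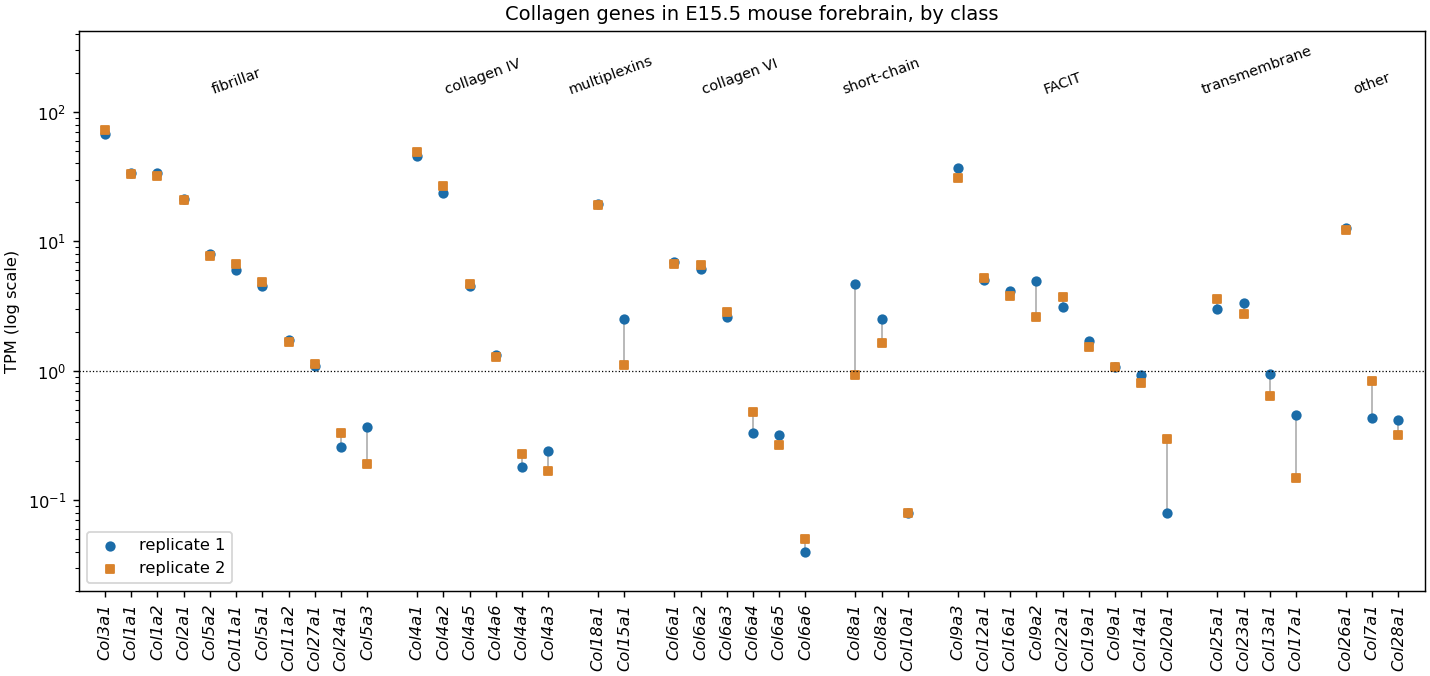
TPM of each of the 44 collagen genes on a log scale, grouped by class and ordered by mean level within it; circles are replicate 1, squares replicate 2, grey lines join the libraries and the dotted line is 1 TPM. Members at 10 TPM or more lie close together between the libraries, while Col8a1 (4.66 and 0.93 TPM), Col20a1 (0.08 and 0.30 TPM), Col17a1 (0.46 and 0.15 TPM) and Col15a1 (2.53 and 1.12 TPM) lie further apart.

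Fibrillar collagens were the largest class, with Col3a1 at the top of all 44. Col3a1 (chr1:45311538-45349706, +), the single chain of collagen III and a ligand of the receptor Adgrg1 in the developing cortex, had 67.13 and 72.75 TPM from 6809 and 6558 reads. It ranked above every other collagen in both libraries, and 11.8% of protein-coding genes were at or above its mean level. Col1a1 (chr11:94936224-94953042, +) and Col1a2 (chr6:4504814-4541544, +), the chains of collagen I, had 33.61 and 33.18 TPM and 33.82 and 32.01 TPM, and their ranges overlapped. Col2a1 (chr15:97975602-98004695, -), the chain of collagen II, had 21.09 and 21 TPM. Collagen II is best known from cartilage, and the forebrain libraries held little of the cartilage markers. Of 8 such markers, Cnmd alone reached 1 TPM in both, with 2.16 and 1.24 TPM, and Acan, the cartilage proteoglycan, had 0.05 TPM in each. The part of cartilage in the level of Col2a1 was not tested.

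The collagens that join fibrils of types I and II were present at lower levels. Col5a2 had 7.99 and 7.69 TPM and Col5a1 4.49 and 4.88 TPM, both chains of collagen V, which nucleates collagen I fibrils. Col11a1 had 6.05 and 6.75 TPM and Col11a2 1.74 and 1.67 TPM, both chains of collagen XI, the partner of collagen II. Col27a1 was just above the detection level at 1.09 and 1.13 TPM. Col24a1 (0.26 and 0.33 TPM) and Col5a3 (0.37 and 0.19 TPM) were below it, so 9 of 11 fibrillar genes were detected.

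Collagen IV came next. Col4a1 (chr8:11198423-11312826, -) had 45.78 and 49.27 TPM and Col4a2 (chr8:11312805-11449287, +) 23.83 and 26.80 TPM, and these α1 and α2 chains make the common network of basement membranes. Col4a5 had 4.53 and 4.68 TPM and Col4a6 1.32 and 1.27 TPM. Col4a3 (0.24 and 0.17 TPM) and Col4a4 (0.18 and 0.23 TPM), which with Col4a5 make the network of the mature kidney filter, were below 1 TPM. The pair of α1 and α2 was thus far above the other pairs, and the pair of α3 and α4 was lowest.

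Each collagen IV pair lies head to head. Col4a1 and Col4a2 start 21 bases apart on opposite strands and their spans overlap by 22 bases, where reads could not be told apart without strand. Col4a4 and Col4a3 start 72 bases apart, and Col4a6 and Col4a5 1309 bases apart on the X chromosome. The start regions of Col4a1 (chr8:11312777-11313076, -) and Col4a2 (chr8:11312555-11312854, +) are printed because the most abundant collagen IV pair shares them. They run from 250 bases before to 50 bases after the RefSeq start, on GRCm38.p6, and capitals mark CCAAT and GGGCGG on either strand.
Col4a1: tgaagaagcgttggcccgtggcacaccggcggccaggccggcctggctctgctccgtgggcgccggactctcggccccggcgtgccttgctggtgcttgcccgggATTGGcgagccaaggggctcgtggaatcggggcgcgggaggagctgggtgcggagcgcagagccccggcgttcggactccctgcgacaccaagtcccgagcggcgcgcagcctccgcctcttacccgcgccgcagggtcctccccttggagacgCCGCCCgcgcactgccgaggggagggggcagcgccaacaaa
Col4a2: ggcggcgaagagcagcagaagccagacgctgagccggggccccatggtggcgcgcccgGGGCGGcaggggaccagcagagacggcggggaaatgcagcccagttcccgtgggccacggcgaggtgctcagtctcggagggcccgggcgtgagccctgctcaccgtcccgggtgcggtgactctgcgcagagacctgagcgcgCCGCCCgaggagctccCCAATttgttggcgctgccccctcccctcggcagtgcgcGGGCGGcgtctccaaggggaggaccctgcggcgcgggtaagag
The windows overlap around the starts, and the single GC box match of Col4a1, 10 bases after its start, is the same stretch as a match of Col4a2. Neither window holds TATAAA. RefSeq windows were at hand for 35 of the 44 collagen genes, 38 windows in all, and each motif was searched on its own on both strands. Col1a1, Col2a1, Col9a3 and Col26a1 are among the genes without a window. GGGCGG occurred in 23 of the 38 (60.5%), against 35.7% of 32851 windows of all genes, which were not matched to the collagens in gene type or base content. CCAAT occurred in 13 (34.2%) against 37.4%, and TATAAA in 5 (13.2%) against 13.6%. Col3a1 is among these 5, with its match far from the start, at position -117. A match describes the letters only.

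FACIT collagens were the third class, and 1 gene made up most of it. Col9a3 (chr2:180597790-180622189, +), a chain of collagen IX, had 36.91 and 30.81 TPM, which overlapped the range of Col1a1. The other collagen IX chains were far lower, with 4.97 and 2.63 TPM for Col9a2 and 1.08 and 1.07 TPM for Col9a1. Col12a1 had 5 and 5.23 TPM and Col16a1 4.18 and 3.77 TPM. Col22a1, known from tissue junctions, had 3.12 and 3.75 TPM, and Col19a1 1.70 and 1.52 TPM. Col14a1 had 0.93 and 0.80 TPM, and Col20a1 0.08 and 0.30 TPM from 4 and 7 reads.

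Among the multiplexins, Col18a1 (chr10:77052178-77166548, -), whose C-terminal fragment is endostatin, had 19.50 and 19.19 TPM. Its span overlaps Slc19a1 on the other strand, which averaged 29.96 TPM, and with the strand setting not stated reads from the overlap cannot be assigned to either gene. Col15a1, the other multiplexin, had 2.53 and 1.12 TPM. Collagen VI had 3 of 6 chains above 1 TPM, Col6a1 with 6.90 and 6.69 TPM, Col6a2 with 6.15 and 6.54 TPM and Col6a3 with 2.60 and 2.87 TPM. Col6a4, Col6a5 and Col6a6 lay between 0.04 and 0.48 TPM.

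Col26a1 (chr5:136741759-136883209, -) was the ninth collagen, with 12.66 and 12.25 TPM. It belongs to none of the larger families. Of the other members in that group, Col7a1, the anchoring fibril chain of skin, had 0.43 and 0.84 TPM and Col28a1 0.42 and 0.32 TPM. Transmembrane Col25a1, a neuronal collagen known from motor axon growth into muscle, had 3.02 and 3.58 TPM, and Col23a1 3.37 and 2.75 TPM. Col13a1 (0.94 and 0.64 TPM) and Col17a1 (0.46 and 0.15 TPM), the hemidesmosome collagen of skin, were below 1 TPM. The short-chain collagens were Col8a1 with 4.66 and 0.93 TPM, Col8a2 with 2.50 and 1.65 TPM and Col10a1, the chain of hypertrophic cartilage, with 0.08 TPM in both.

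Summed over their members, the fibrillar collagens had 178 and 182 TPM, or 46.9% and 48.5% of the collagen total. Collagen IV had 75.9 and 82.4 TPM (20.1% and 22.02%), and the FACIT collagens 58.0 and 49.9 TPM (15.3% and 13.3%). The multiplexins summed to 22.03 and 20.3 TPM, collagen VI to 16.3 and 16.9 TPM, the ungrouped collagens to 13.5 and 13.4 TPM, and the transmembrane collagens to 7.79 and 7.12 TPM. The short-chain collagens had 7.24 and 2.66 TPM, the widest relative gap between the libraries of any class. The fibrillar sum was 2.34-fold and 2.20-fold that of collagen IV, a log2 difference of 1.18 ± 0.06 (SD, n = 2), and 3.06-fold and 3.64-fold that of the FACIT collagens. These gaps were larger than the spread between the libraries.

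The difference between the medians of fibrillar and collagen IV genes depended on the low members. The median fibrillar gene was above the median collagen IV gene by 1.34 on the log2(TPM + 0.1) scale, with 1.26 and 1.42 in the single libraries. Among members at 1 TPM or more the difference of medians was -0.46, with collagen IV higher. This compares 9 fibrillar genes with only 4 collagen IV genes.

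**Figure D3:**
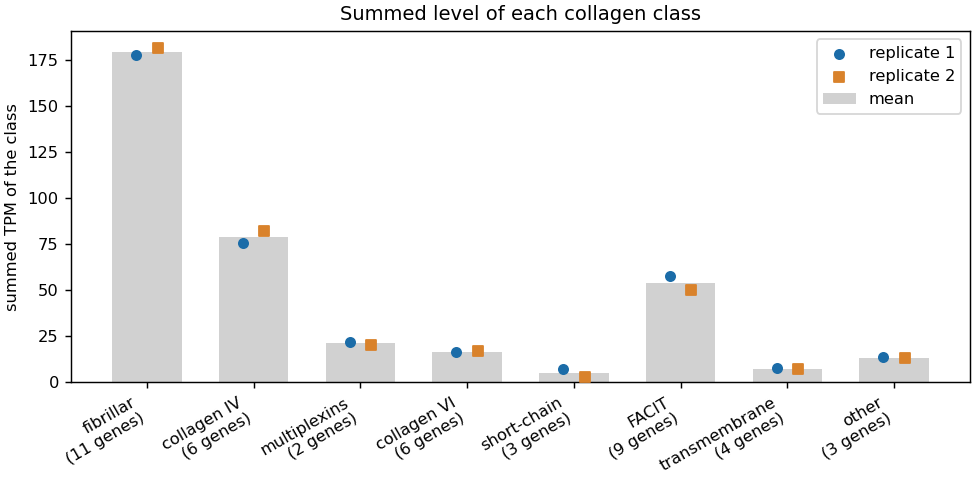
Summed TPM of each collagen class; bars are the mean of the 2 libraries, circles replicate 1 and squares replicate 2, and the number of genes is under each name. Fibrillar collagens (178 and 182 TPM) stand above collagen IV (75.9 and 82.4 TPM) and FACIT collagens (58.0 and 49.9 TPM) in both libraries.

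Ratios between chains were then read within each library, for 14 pairs. Collagen I is assembled from a pair of α1 chains and a single α2 chain, yet the messages were level: Col1a1 over Col1a2 was 0.994 in replicate 1 (95% exact binomial interval of the reads 0.952 to 1.04) and 1.04 in replicate 2 (0.991 to 1.08). Both intervals include 1. Without length correction the reads gave ratios of 1.14 and 1.15, since the Col1a1 transcript is the longer.

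Collagen IV is likewise built with α1 in excess of α2. Col4a1 over Col4a2 was 1.92 in replicate 1 (interval 1.84 to 2.00) and 1.84 in replicate 2 (1.77 to 1.91), with a mean of 1.88 ± 0.06 (SD, n = 2). Col4a1 was thus near 1.9 times its partner gene in each library, and the intervals overlapped. Col4a5 over Col4a6 was 3.43 and 3.69. It fell to 2.23 and 2.15 when each gene was represented by its protein-coding transcript with the most reads, a setting chosen after seeing the data. Col4a3 over Col4a4 was 1.33 and 0.739 with intervals that include 1, so no order could be read at this depth.

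Among the other heterotrimers, Col6a1 and Col6a2 were near level, with ratios of 1.12 and 1.02, and the remaining pairs were not. Col5a1 over Col5a2 was 0.562 and 0.635. Col6a3, which contributes 1 chain to each collagen VI unit beside Col6a1 and Col6a2, was at 0.377 and 0.429 of Col6a1, and at 0.209 and 0.226 by main coding transcript. Col11a1 over Col11a2 was 3.48 and 4.04, and 4.12 and 4.07 by main coding transcript. In collagen IX, which takes up α1, α2 and α3 together, Col9a3 was 7.43 and 11.7 times Col9a2, and Col9a1 was 0.217 and 0.407 of it. By main coding transcript, Col9a3 was 7.90 and 9.11 times Col9a2, and Col9a1 was 0.255 and 0.392 of it. Col8a1 over Col8a2 was 1.86 (1.60 to 2.17) in replicate 1 and 0.564 (0.433 to 0.731) in replicate 2, the only pair whose direction turned between the libraries with intervals that exclude 1 in both.

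Between families, Col3a1 over Col1a1 was 2.00 and 2.19, and Col3a1 over Col4a1 was 1.47 and 1.48. Both shrank by main coding transcript, to 1.53 and 1.65 and to 1.12 and 1.09. The gene value of Col3a1 includes Col3a1-205, a transcript of 737 bases that held 22.2% and 26.3% of the gene's TPM. Counted in reads with no length correction, Col3a1 over Col4a1 was 0.975 and 0.955.

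**Figure D4:**
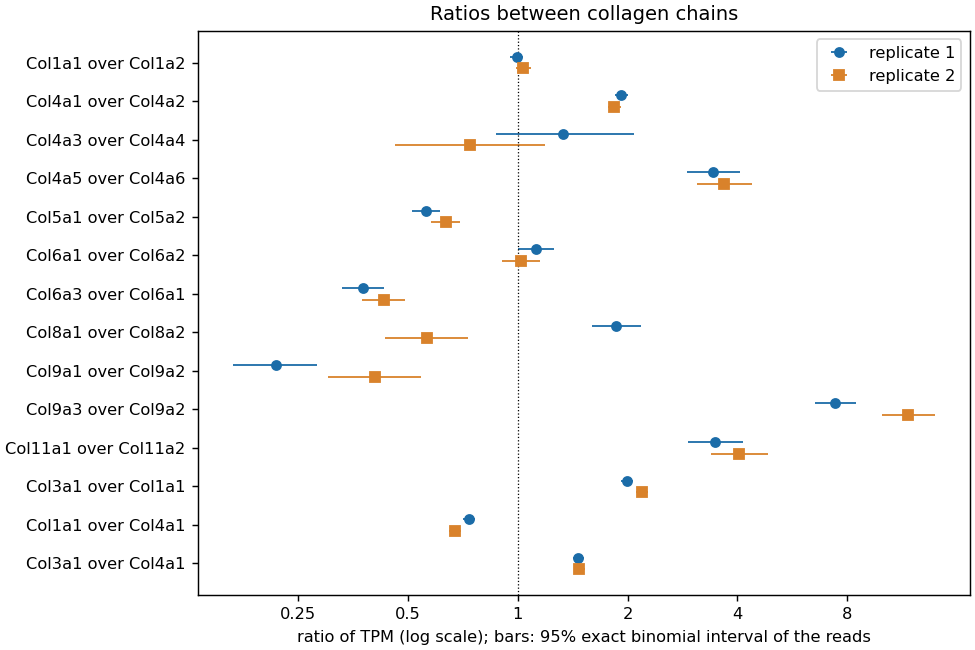
Ratio of TPM between the chains of each of the 14 pairs, on a log axis; circles are replicate 1, squares replicate 2, bars are the 95% exact binomial interval of the reads and the dotted line is a ratio of 1. Col1a1 over Col1a2 lies on the line (0.994 and 1.04), Col4a1 over Col4a2 near 1.9 (1.92 and 1.84), and Col8a1 over Col8a2 on opposite sides (1.86 and 0.564).

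Transcripts of single genes separated in a few members. Of the 14 collagens at a mean of 5 TPM or more with several annotated transcripts, 8 had a leading transcript with over 90% of the gene's TPM and 2, Col2a1 and Col12a1, had one under 60%. The leading transcript was the same in both libraries in all 14. Col2a1-201, which keeps exon 2 (chr15:98000403-98000606, -, 204 bases), held 52.2% and 60.2% of Col2a1. Col2a1-202, which skips it, held 37.3% and 23.1%. The exon encodes the cysteine-rich domain of the IIA form, the form known from cartilage precursors and from embryonic tissues other than cartilage. The junctions are shown with exon 2 in capitals and 15 bases of exons 1 and 3 in lower case.
Col2a1-201: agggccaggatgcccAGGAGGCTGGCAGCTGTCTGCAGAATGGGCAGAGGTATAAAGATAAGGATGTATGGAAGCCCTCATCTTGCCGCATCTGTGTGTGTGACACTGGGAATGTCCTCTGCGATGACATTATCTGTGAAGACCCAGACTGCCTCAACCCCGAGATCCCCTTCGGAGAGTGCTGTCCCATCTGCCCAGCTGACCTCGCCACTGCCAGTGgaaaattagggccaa
Col2a1-202: agggccaggatgcccgaaaattagggccaa
The form with exon 2 had 11 and 12.63 TPM, and the form without it 7.88 and 4.85 TPM. The form with exon 2 was the higher in both libraries.

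Start sites also differed. Col18a1-202, which starts at chromosome 10 position 77166548, the upstream end of the gene, held 98.9% and 98.3% of Col18a1. Col9a1-202 starts at chromosome 1 position 24195187, downstream of the gene's first start at 24177610, and held 92.2% and 96.1% of Col9a1. That gene is below the 5 TPM limit used above, with 76 and 69 reads, and by posterior mean estimates the shares were 77.3% and 80.8%. For Col12a1 the leading transcript was Col12a1-204, of 1784 bases, with 46.8% and 32.03%. The full-length Col12a1-201, of 11511 bases, held 18.2% and 18.0%, or 0.91 and 0.94 TPM. In Col26a1, Col26a1-202 held 54.5% and 82.5%, a difference between the libraries larger than in any other leading transcript named here.

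The genes that modify collagen chains inside the cell had a median of 13.8 TPM, against 2.77 TPM for the 44 members. The collagen median includes 14 members below 1 TPM in both libraries. Of the modifying genes, only Ppib, P4hb, Serpinh1 and Mia3 were above Col3a1 in both libraries. Of 65 genes in the lists of the pathway, 55 reached 1 TPM in both libraries, against 60.6% of protein-coding genes. In the endoplasmic reticulum list 19 of 20 did. Ppib, a prolyl isomerase, had 251.42 and 270.76 TPM, P4hb, the β subunit of prolyl 4-hydroxylase, 199.89 and 196.49 TPM, and Serpinh1, the collagen chaperone Hsp47, 161.86 and 166.34 TPM. Mia3, which loads procollagen into transport carriers, had 77.53 and 82.00 TPM. The lowest was the prolyl 3-hydroxylase P3h2 with 0.27 and 0.18 TPM.

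Outside the cell, 11 of 14 processing and crosslinking genes were detected. Pxdn, the peroxidase that crosslinks collagen IV, had 29.89 and 31.61 TPM. Bmp1, which removes the C-propeptide of fibrillar procollagens, had 15.15 and 16.07 TPM, and Adamts3, an N-propeptidase, 12.89 and 12.93 TPM. The lysyl oxidase Loxl1 had 11.40 and 11.67 TPM, and Loxl4 was lowest with 0.15 and 0.09 TPM.

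Of 11 receptors 7 were detected, a share near the 60.6% of protein-coding genes. Ddr1, a receptor tyrosine kinase, had 103.75 and 104.15 TPM, Adgrg1, the receptor of collagen III, 82.86 and 83.11 TPM, and Itgb1, the β chain of the collagen-binding integrins, 77.80 and 73.24 TPM. Ddr2 had 6.56 and 6.91 TPM and the platelet receptor Gp6 a single read in replicate 1 and 0 in replicate 2. Adgrg1 was thus above its ligand Col3a1 in both libraries.

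All 11 partners of fibrils and basement membranes were detected, led by the collagen-binding Sparc with 334.28 and 303.36 TPM. Dcn, a fibril proteoglycan, had 31.08 and 35.73 TPM, Fn1, fibronectin, 22.86 and 27.47 TPM, and Nid2, a nidogen of basement membranes, 18.53 and 20.96 TPM. Fbn1 was lowest with 1.82 and 1.53 TPM. In degradation, 7 of 9 were detected. Timp2, a metalloproteinase inhibitor, had 62.33 and 57.37 TPM, Mmp14, a membrane collagenase, 46.92 and 46.04 TPM, Mmp9, a gelatinase, 14.94 and 16.24 TPM and Timp3 14.01 and 13.09 TPM. The collagenase Mmp13 was lowest, with 0.03 and 0.04 TPM from 2 reads in each library.

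Between the pools most collagens lay close together, and Col8a1 stood out. Ratios were taken from reads scaled by edgeR's TMM factors, replicate 1 over replicate 2. In replicate 1, 4 of the 44 members were at least 1.5-fold higher, against 6.25% of 19165 mouse genes with 10 or more summed reads, and 2 were at least 1.5-fold lower, against 5.09%. The other 38 lay within 1.5-fold. The counts of members past 1.5-fold were thus close to the shares over all genes. The median log2 ratio was 0.02 over the members and -0.00 over all genes. Scaling by the spike-ins shifts the median of all genes by -0.20.

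Col8a1 (chr16:57624258-57754737, -), a short-chain collagen, differed most. It had 546 reads in replicate 1 and 100 in replicate 2, a 4.93-fold ratio (95% interval for counting error 3.99 to 6.19). Col9a2 had 273 and 160 reads, 1.54-fold (1.27 to 1.89). Its TPM differ more, 4.97 against 2.63, and a transcript of 752 bases held 1.09 TPM of the gene in replicate 1 and 0 in replicate 2. Col17a1 (22 and 7 reads, 2.72-fold) and Col5a3 (52 and 25 reads, 1.87-fold) were higher from few reads. Col7a1 (48 and 77 reads, 0.567-fold) and Col20a1 (4 and 7 reads, 0.544-fold) were lower, and the interval of Col20a1 includes 1. Of the members detected in both libraries, Col9a2 alone passed 1.5-fold in either direction. With spike-in scaling its log2 ratio of 0.63 became 0.43, which is below 1.5-fold. With TMM scaling, Col8a2 (1.497-fold) and Col15a1 (1.49-fold) lay just inside it.

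Choroid plexus markers moved the same way as Col8a1. All 8 were higher in replicate 1 and 7 of them by at least 1.5-fold. Their sum was 843 TPM in replicate 1 and 376 TPM in replicate 2, and Ttr, the defining marker, had 761.00 and 331.13 TPM. Their part in the ratio of Col8a1 was not tested. Markers of fibroblasts and vessels differed less: 12 meningeal fibroblast markers, of which Dcn and Lum are also in the partner list, summed to 94.7 and 102 TPM, 10 endothelial markers to 205 and 221 TPM, and 10 pericyte and mural markers to 57.2 and 57.5 TPM. Bone markers, none of 6 detected in both libraries and Bglap at 0 reads in each, summed to 3.40 and 1.82 TPM, and 4 of the 6 were higher in replicate 1, 2 by at least 1.5-fold. Of 8 epidermal and muscle markers, 2 were detected and 7 were higher in replicate 1, 3 of them by at least 1.5-fold. Acta1, a muscle actin, had 5.83 and 3.17 TPM, Myh3, an embryonic muscle myosin, 0.40 and 0.07 TPM and Krt15, an epidermal keratin, 0.50 and 0.16 TPM. Myh3 (54.9 and 8.67 reads) and Krt15 (18 and 2 reads) rest on few reads, as do the bone markers Ibsp (79 and 22) and Dmp1 (37 and 21). Over all mouse genes with 10 or more summed reads, 6.25% were at least 1.5-fold higher in replicate 1. The sum of that list, 16.0 and 13.8 TPM, is mostly Krt10, with 8.70 and 10.12 TPM. The part of bone, epidermal and muscle markers in the ratios of Col8a1 and the other members was not tested.

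**Figure D5:**
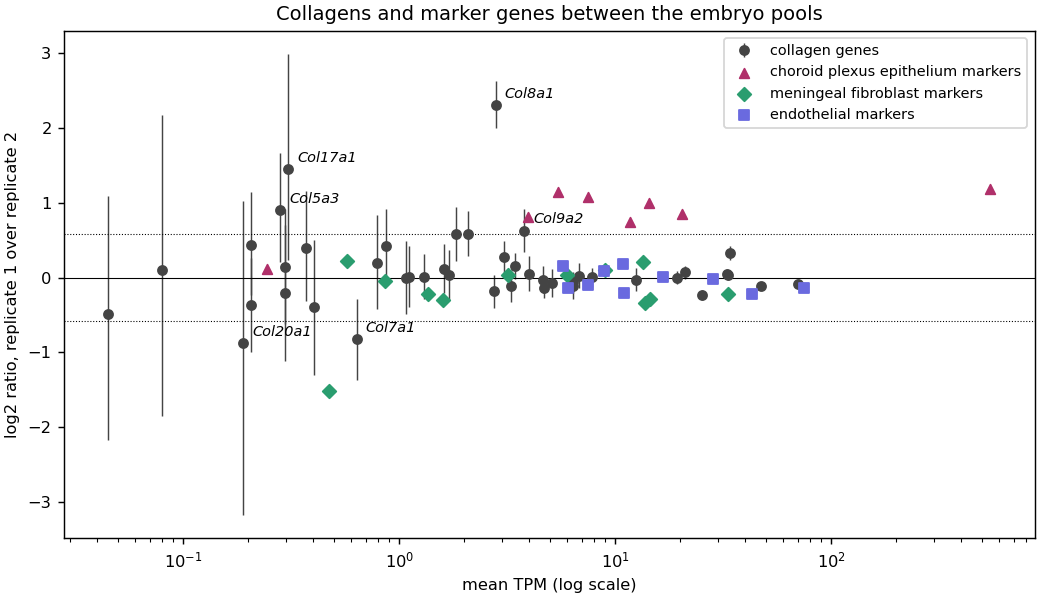
Log2 ratio of replicate 1 over replicate 2 against mean TPM (log axis) for the 44 collagens (black, bars are 95% intervals for counting error) and for choroid plexus, meningeal and endothelial markers; dotted lines mark 1.5-fold, and the 6 collagens past it are named. Col8a1 lies above the choroid plexus markers at 4.93-fold, while the collagens at 10 TPM or more and the endothelial markers lie within 1.5-fold, as do the meningeal markers except Twist2 (0.24 and 0.71 TPM).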

How the data were processed

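Total RNA of 2 forebrain pools was read from gene and transcript tables. Per the notes deposited with the files, genome and annotation were mm10 and GENCODE M4; the aligner, quantifier, their versions and strand use were not given in the sources used here. A manual of a SMARTer cDNA kit is linked in the labels' protocols, but the priming is not stated, so its effect on long collagen transcripts was not tested. The deposited expected counts are estimated reads, divided among transcripts that share them. The deposited TPM and FPKM values scale them by effective length and library size, as maximum-likelihood or posterior mean estimates. A transcript's share of its gene is the percent value deposited with it.

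Symbols were joined by identifier for 42462 of 43346 mouse genes (98.0%). GENCODE M21, on mm10 but with models other than those of M4, gave gene types, coordinates, exons and transcript names. Start regions come from RefSeq (GRCm38.p6) and covered 35 of 44 members. Exon lengths use each gene's longest coding sequence; the 54-base sequences skip 77 transcripts whose sequence was not usable. The labels describe the replicates as separate pools.

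The members and lists were chosen with earlier results of these data known, and the exon sequence comparison after seeing the exon lengths. Named were all members and, of each pathway list, the 4 highest and the lowest gene; markers were named after their values were seen. Detection meant 1 TPM or more in each library. For the pools, expected counts were rounded, scaled by TMM factors (edgeR 4.0.16, R 4.3.3) over genes with 10 or more summed reads, and 0.5 reads added. Intervals cover counting error only, at 95%. On simulated data for replicate 1 over replicate 2 (18858 genes, 200 changed 2-fold), 96% of changed genes passed 1.5-fold. The relative spread between simulated libraries was set to 0.1, and the changed genes were drawn only from genes with more reads. The 96% therefore does not cover members with few reads, and how often unchanged genes pass 1.5-fold was not recorded. Alternatives used DESeq2 1.42.0 size factors, spike-in scaling, other estimates, other pseudocounts, other thresholds and single libraries. Python 3.11.15 was used with scipy 1.17.1, pandas 2.3.3, numpy 2.4.6 and matplotlib 3.10.9.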

Additional observations from a re-analysis of the deposited data

How the results depend on the processing

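No paired analysis was possible because the series holds 1 group. With posterior mean TPM the collagens held 0.0408% of mouse-gene TPM, against 0.0398% as reported. The fibrillar minus collagen IV difference of medians (1.34 on the log2 scale) became 1.04 with a pseudocount of 1, 0.86 as a mean over members and -0.46 among members at 1 TPM or more, where fibrillar minus ungrouped collagens also turned, to -0.66. Col26a1 is the only ungrouped collagen at that level, so the -0.66 rests on a single gene. Log2 Col1a1 over Col1a2 (0.02) became 0.20 without length correction and 0.067 from protein-coding transcripts, or from the one with the most reads, a setting chosen after seeing the data. Log2 Col4a1 over Col4a2 (0.91) became 0.96 without length correction, where Col3a1 over Col4a1 turned, to -0.051. At 2-fold, 2 members were higher in replicate 1 and 0 lower. At 1.5-fold with spike-in scaling, which shifts all genes down, 4 members were lower. The shares of all genes past these limits were not recorded. The number of members whose leading transcript held under 60% was 1 to 3 in single libraries. The number detected was 22 at 2 TPM, 32 at 0.5 TPM and 40 at 10 reads; single libraries gave 29 and 30. Low members rest on few reads: posterior means put Col7a1 at 1.09 and 1.69 TPM.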
